A study of Mus musculus with 40 samples.

Results

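The matrix metalloproteinases (MMPs) and the tissue inhibitors of metalloproteinases (TIMPs) described here are 10 genes, picked by name from the 55487 genes of the deposited table. They are the inhibitors Timp1, Timp2, and Timp3 and the proteinases Mmp2, Mmp9, Mmp12, Mmp13, Mmp14, Mmp15, and Mmp19. MMPs are zinc-dependent enzymes that are made as inactive proenzymes and, once activated, cut collagens, elastin, and other proteins of the extracellular matrix. TIMPs bind the active site of MMPs and block it, so the balance of both families bears on how fast matrix is laid down and removed. In injured liver both families are known to be made mainly by nonparenchymal cells, such as hepatic stellate cells, macrophages, and neutrophils.

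RNA was sequenced from whole liver of female hepatocyte-specific Nampt knockout (HNKO) mice, which carry floxed Nampt alleles (Nampt fl/fl) and Cre under the albumin promoter (Alb-Cre+/-), and of floxed littermates without Cre (WT). Nampt encodes an enzyme of the NAD salvage pathway, and the albumin promoter restricts its deletion to hepatocytes, so the other liver cells of HNKO mice keep the gene. All mice were on a C57BL/6JBomTac background and were fed a purified control diet (PD), with livers taken on days 3, 6, 12, and 21 of feeding. Each library came from 1 mouse, and in order of day there were 5, 4, 5, and 5 WT libraries and 5, 5, 6, and 3 HNKO libraries, 19 of each genotype. The comparison of genotypes at each day asks how early, and for how long, the expression of these genes differs in livers that lack Nampt in hepatocytes.

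A further 2 libraries, 17 and 18 of HNKO at day 21, failed the quality control of the study and were left out. The 38 libraries used held 16151037 to 64181492 counted fragments. Nampt itself was lower in HNKO by log2 fold changes of -0.93, -0.90, and -0.82 at days 3, 6, and 12 (edgeR adjusted p = 0.0193, 0.0128, and 0.0208), and of -0.69 at day 21, which did not pass the threshold (adjusted p = 0.161). These calls were lost without library 5 at day 3, without 8, 10, or 29 at day 6, and without 16 or 35 at day 12 (adjusted p up to 0.142). With only the 2 groups of the day in the fit, Nampt was not called at day 6 or 12 (adjusted p = 0.0841 and 0.0773) and was called at day 21 (-0.67, adjusted p = 0.0247). All 5 hepatocyte markers were measured, and their summed CPM, counts scaled to library size, was 81800 to 138000 in WT and 53310 to 114500 in HNKO. Cell types cannot be separated in such bulk tissue, so more cells that express a gene and more of its RNA per cell cannot be told apart here.

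The stretches before the start of Timp1 and Mmp12, which were higher in HNKO at all days and went together across libraries, and of Mmp13 are shown to compare their letters. They are the 250 bases before the annotated start in RefSeq on build GRCm38.p6, written 5′ to 3′, all on the plus strand. Capitals mark 7 bases of the form TGANTCA, the site of the AP-1 family, which injury and inflammatory signals activate, and 6 bases AGGAAG, a core of ETS family sites, each searched on both strands without overlap between them.
Timp1, chrX:20869916-20870165: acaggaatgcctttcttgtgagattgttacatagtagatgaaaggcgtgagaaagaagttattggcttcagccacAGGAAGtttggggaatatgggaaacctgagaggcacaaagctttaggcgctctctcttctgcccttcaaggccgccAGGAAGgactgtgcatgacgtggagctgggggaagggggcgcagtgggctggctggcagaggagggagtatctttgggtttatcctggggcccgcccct
Mmp12, chr9:7347124-7347373: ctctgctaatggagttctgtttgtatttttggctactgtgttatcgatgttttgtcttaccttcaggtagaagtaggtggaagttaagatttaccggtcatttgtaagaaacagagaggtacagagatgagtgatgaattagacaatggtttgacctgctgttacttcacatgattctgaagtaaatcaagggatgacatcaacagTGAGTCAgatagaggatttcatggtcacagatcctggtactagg
Mmp13, chr9:7272264-7272513: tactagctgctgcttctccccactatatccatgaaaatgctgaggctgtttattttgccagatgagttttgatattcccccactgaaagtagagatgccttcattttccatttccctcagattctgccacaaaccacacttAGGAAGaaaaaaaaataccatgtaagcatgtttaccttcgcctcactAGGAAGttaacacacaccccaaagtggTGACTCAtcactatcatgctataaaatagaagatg
An earlier start of Mmp12 in RefSeq had 1 ETS match and no AP-1 match in its promoter. Over windows of 300 bases, which add 50 bases after the start, AP-1 was matched in 2 of the 8 member promoters, those of Mmp12 and Mmp13, and in 7.81% of 32851 promoters of the table. ETS was matched in 5 of the 8, and in 35.4% of all. The TATA box TATAAA was matched in 2 of the 8 and in 13.6% of all, the Sp1 site GGGCGG in 5 of the 8 and in 35.7% of all, and the RUNX site AACCACA in 1 of the 8, that of Mmp13, and in 5.27% of all. These matches describe letters only. Promoters of 7 of the 10 genes were in the table, and Mmp2, Mmp9, and Mmp19 were not matched.

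All 10 genes passed the filter on low counts and were tested with 20297 genes in all. Timp1 had at most 8 counts in any WT library, under the minimum count of 10. It thus passed the filter only through HNKO, the group in which it was high. An adjusted p-value under 0.05 in the quasi-likelihood test of edgeR counts as a call. On day 3, 5 of the 10 were called higher in HNKO, beside 2.95% of all genes tested (4.66% in either direction). On day 6 it was 6 of 10 beside 8.42% (12.8%), on day 12 it was 4 of 10 beside 4.56% (7.82%), and on day 21 it was 4 of 10 beside 2.21% (3.12%). In edgeR and in DESeq2, 0 of the 10 were called lower at any day, beside 1.71%, 4.37%, 3.27%, and 0.916% of all genes in edgeR, and at an unadjusted p-value under 0.05 edgeR also had 0 lower. Timp1 and Mmp12 rose at all 4 days, as did 0.823% of all genes tested. Mmp2 and Mmp15 were called at 3 days each, Mmp9 and Mmp14 at 2 days each, and Timp2 at 1 day, whereas Timp3, Mmp13, and Mmp19 were called at no day. The median log2 fold change of the 10 genes was 0.73, 1.16, 0.77, and 0.86 at days 3, 6, 12, and 21, whereas that of all genes lay between -0.01 and 0.01.

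**Figure D1:**
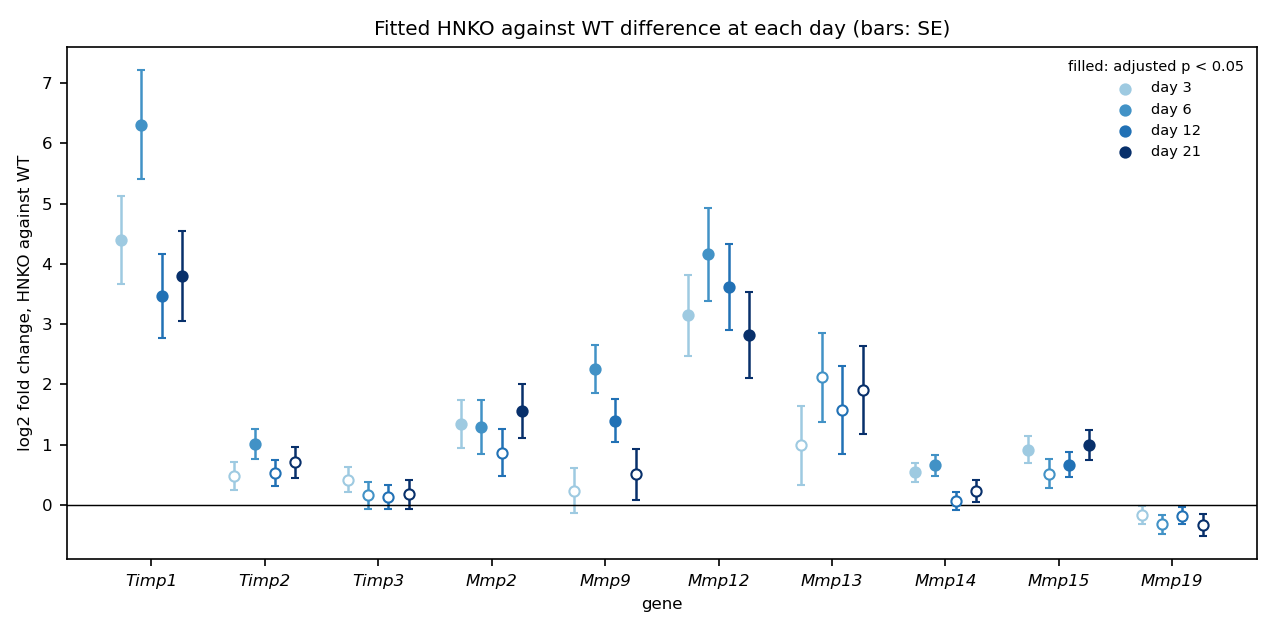
Fitted log2 fold change of HNKO against WT for the 10 genes (y axis) at days 3, 6, 12, and 21 (light to dark points), with the standard error as bars, filled where the adjusted p-value of edgeR was under 0.05. Timp1 and Mmp12 stand above 2.8 at every day, and Mmp19 lies below 0 at every day.

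The counts moved with single libraries. At day 3, 3 of the 10 were called without library 1, 5, or 24, and 2 without library 2, 23, or 25. The number of genes called in the whole table also fell in each of these day 3 fits. It fell least without library 1, and most without library 23, to 322 in place of 945. At day 6, 4 of the 10 were called without library 29, and 1126 genes in the whole table in place of 2596. The losses at these 2 days were thus not particular to the 10 genes. At day 21, 2 were called without library 19, 20, 21, 40, or 41. Without library 37, 0 of the 10 genes were called at day 21 by edgeR (5 had an unadjusted p-value under 0.05), and 13 genes were called in the whole table in place of 634. That fit leaves 2 HNKO libraries.

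Timp1 (chrX:20870166-20874735), a secreted inhibitor that also binds proMMP-9, was almost absent from WT liver and showed the largest fold changes of the 10 genes at days 3, 6, and 21, with Mmp12 slightly above it at day 12. WT libraries held 0 to 8 counts of Timp1 each, with 2 of 19 at 0, and HNKO libraries held 11 to 416. At day 3 WT libraries stood at -3.80, -3.26, -2.49, -2.39, and -1.35 log2 CPM, and HNKO libraries at -0.54, -0.27, 1.52, 1.92, and 2.23. On this scale, which adds a prior count of 2, a library with 0 counts stands at -3.80. The groups did not overlap, with libraries 4 and 22 lowest in HNKO.

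At day 6 Timp1 in WT was at -3.80, -3.13, -2.66, and -2.52 log2 CPM, from 5 counts in all, and in HNKO at 1.11, 1.70, 2.24, 2.28, and 3.29. At day 12 it was -2.78, -2.77, -2.62, -2.16, and -1.48 in WT and -1.24 at the lowest, 0.53 at the median, and 1.44 at the highest in HNKO. At day 21 it was -3.17, -2.91, -2.13, -1.70, and -1.39 in WT and -0.84, 0.69, and 2.06 in HNKO. Each of the 19 HNKO libraries was thus above every WT library of its day. The fitted log2 fold changes were 4.39 ± 0.73 (SE), 6.31 ± 0.90, 3.47 ± 0.70, and 3.80 ± 0.74 at days 3, 6, 12, and 21, with adjusted p-values in edgeR of 0.00109, 2.96e-05, 0.00369, and 0.00444. The fold of day 6 has a WT total of 5 counts as its base, and its size is less certain than its direction. Without library 37, the log2 fold change of day 21 was 2.83 (adjusted p = 0.239). Timp1 lies within Syn1, a gene on the other strand with a median of 24 counts, and the exons share 0 bases.

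Timp2 (chr11:118301069-118355740), which binds proMMP-2 and takes part in its activation as well as inhibiting it, rose at day 6. There, WT libraries were at 3.24, 3.27, 3.30, and 3.32 log2 CPM and HNKO libraries at 3.80, 3.96, 4.02, 4.41, and 4.92, with no overlap. The log2 fold change was 1.01 ± 0.25 (adjusted p = 0.00607). The other days gave 0.48 ± 0.23, 0.53 ± 0.22, and 0.71 ± 0.26, with adjusted p-values of 0.211, 0.121, and 0.121, and in edgeR the interaction of genotype and day did not pass (adjusted p = 1.0). Over all days, 13 of the 19 HNKO libraries were above every WT library of their day.

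Timp3 (chr10:86300372-86349506), an inhibitor that is held in the matrix, passed the test at no day. Its log2 fold changes were 0.42 ± 0.21, 0.16 ± 0.23, 0.14 ± 0.20, and 0.18 ± 0.24 at days 3, 6, 12, and 21 (adjusted p = 0.254, 0.71, 0.709, and 0.775). WT libraries ranged from 4.07 to 5.13 log2 CPM and HNKO libraries from 4.18 to 5.76 over all days. The highest value, 5.76, came from library 7 at day 6, and without it the log2 fold change of that day was -0.20. Of the exonic bases of Timp3, 21.3% are shared with Syn3 on the other strand, a gene with a median of 87 counts. The sources used here do not state whether counting used the strand.

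The makeup of the inhibitors differed between genotypes in Timp1. In FPKM, which scales counts to the length of the merged exons and to the library size, Timp1 made up 2.07% ± 1.97 (SD, n = 5) of the summed TIMP level in WT at day 3 and 23.9% ± 11.1 (n = 5) in HNKO. At day 6 it was 1.06% ± 0.779 (n = 4) against 38% ± 12.8 (n = 5). The WT libraries reached 5.61% at most over all days, and the HNKO libraries went from 4.92% to 56.9%, so the ranges over all days overlapped. The summed TIMP level was 5.71 ± 1.12 FPKM in WT and 14 ± 5.11 in HNKO at day 6. These shares follow from the values of the 3 genes and were not tested.

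Among the gelatinases, which cut denatured collagen and the type IV collagen of basement membranes, Mmp2 was called at days 3, 6, and 21 and Mmp9 at days 6 and 12, and their courses were not tested against each other. Mmp2 (chr8:92827291-92853420), made chiefly by fibroblast-like cells, had log2 fold changes from 0.87 to 1.56. At day 3 its WT libraries were at 1.86, 1.89, 2.15, 2.42, and 2.45 log2 CPM, and its HNKO libraries at 1.87, 2.68, 2.89, 4.09, and 4.51. At day 6 they were at 1.37, 1.58, 1.71, and 1.76 in WT and 2.06, 2.09, 2.51, 3.12, and 3.82 in HNKO. At day 21 they were at 0.91, 1.54, 1.62, 1.73, and 2.0 in WT and 2.06, 3.08, and 3.78 in HNKO. Groups did not overlap at days 6 and 21, and at day 3 library 22 of HNKO lay within the WT range.

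The log2 fold changes of Mmp2 were 1.35 ± 0.40, 1.30 ± 0.45, 0.87 ± 0.39, and 1.56 ± 0.45. The adjusted p-values in edgeR were 0.0465, 0.0493, 0.16, and 0.0495, so the 3 calls sat just inside the threshold, and other settings moved them over it. Leaving out 1 library in turn, the call of day 3 was lost without library 1, 2, 5, 23, 24, 25, or 26 (adjusted p up to 0.214, without library 23). The call of day 6 was lost without library 7, 8, 10, 27, 28, or 29 (up to 0.19, without library 7), and that of day 21 without library 19, 20, 21, 37, 39, 40, or 41 (up to 0.584, without library 37). The log2 fold change stayed between 0.63 and 1.92 over the 4 days in all these fits. The exact permutation test of mean log2 CPM, two-sided, gave p = 0.0714, 0.0159, and 0.0357 at days 3, 6, and 21, of which the last 2 are the smallest possible with so many libraries.

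Mmp9 (chr2:164940780-164955850), a gelatinase that neutrophils store and macrophages secrete, rose at days 6 and 12. At day 6 the WT libraries were at -0.60, -0.38, 0.49, and 0.52 log2 CPM and the HNKO libraries at 1.47, 1.58, 1.84, 2.74, and 3.02, without overlap. At day 12 WT was at -1.30, -0.84, -0.57, -0.49, and -0.07, and HNKO at -0.41 at the lowest, 0.81 at the median, and 1.24 at the highest, where library 32 lay within the WT range. At days 3 and 21 the groups overlapped. The log2 fold changes were 0.24 ± 0.37, 2.26 ± 0.40, 1.4 ± 0.36, and 0.51 ± 0.42 at days 3, 6, 12, and 21 (adjusted p = 0.767, 0.000301, 0.017, and 0.568). With all 40 libraries the call of day 12 was lost (1.41, adjusted p = 0.0814).

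Mmp9 was also the 1 gene of the 10 that differed between days within HNKO (adjusted p = 0.000346), beside 7.90% of all genes tested. Within WT the adjusted p in edgeR was 0.395. Timp1 had an adjusted p of 0.0959 for day within HNKO, and passed without library 37 (0.0416) or with the edgeR 4 computation (0.0204). In the test of the interaction itself, Mmp9 had the smallest p of the members, and its adjusted p of 0.705 in edgeR did not pass. In that test, edgeR called 0 of the 20297 genes, with 4.76% at an unadjusted p-value under 0.05, and DESeq2 called 12 genes and 0 of the 10. At day 6 neutrophil markers moved with Mmp9. Their summed CPM was 0.716 to 1.65 in WT and 5.50 to 22.3 in HNKO, and S100a8 and S100a9, the 2 of the 5 that could be tested, rose by 3.53 ± 0.63 and 3.49 ± 0.56 on the log2 scale (adjusted p = 0.000395 and 0.000134). At day 12, the other day on which Mmp9 was called, the sum was 0.431 to 1.25 CPM in WT and 0.577 to 5.76 in HNKO, with overlap, S100a8 had 1.5 ± 0.60 (adjusted p = 0.114), and S100a9 rose by 1.59 ± 0.49 (0.0417). That call of S100a9 was lost in 7 of 11 leave-one-out fits (without library 11, 12, 13, 14, 15, 16, or 33, adjusted p up to 0.155), with all 40 libraries (0.103), with only the 2 groups of the day (0.103), with the edgeR 4 computation (0.0542), and with no filter beyond 1 count (0.0535). Both genes are also known from monocytes, and Ly6g, which marks neutrophils proper, had at most 3 counts in any library, Camp 8, and Ngp 53. Within HNKO, the r of the neutrophil sum was 0.74 with Mmp9, 0.77 with Mmp14, and 0.75 with Timp1 (n = 19). That of the Kupffer cell and macrophage sum was 0.43, 0.45, and 0.18. Without S100a9 the neutrophil values were 0.67, 0.74, and 0.74, and without Clec4f those of macrophages were 0.68, 0.79, and 0.57. The part of such cells in these results was not tested.

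Mmp12 (chr9:7344381-7369499), the elastase of macrophages, had the largest fold changes of the 7 proteinases. At day 3 WT libraries were at -2.26, -0.93, -0.87, -0.50, and 0.74 log2 CPM and HNKO libraries at 0.26, 0.51, 2.10, 3.29, and 3.76. At day 6 they were at -1.4, -1.15, -0.50, and -0.09 in WT and 1.14, 2.20, 3.36, 3.96, and 4.10 in HNKO. At day 12 they were at -1.95, -1.48, -1.41, -1.41, and -0.86 in WT, and from 0.33 through a median of 1.90 to 3.07 in HNKO. The groups were apart at days 6 and 12, and WT library 26 overlapped with HNKO libraries 4 and 22 at day 3.

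At day 21 Mmp12 was at -1.0, -0.88, -0.60, 0.03, and 0.23 log2 CPM in WT and at 0.06, 2.55, and 2.97 in HNKO, where library 38 lay within the WT range. The log2 fold changes were 3.15 ± 0.67, 4.16 ± 0.77, 3.62 ± 0.71, and 2.82 ± 0.71 (adjusted p = 0.00667, 0.000562, 0.00317, and 0.0235). The exact permutation p of day 21 was 0.0714, and the call of that day was lost without library 20, 21, 37, 40, or 41 (adjusted p up to 0.369, without library 37). The calls of the other days held in all leave-one-out fits. In counts, WT libraries held 3 to 40 and HNKO libraries 22 to 733.

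Macrophage markers moved with Mmp12 in part. Of the 9 Kupffer cell and macrophage markers, 3, 6, 3, and 3 were called higher at days 3, 6, 12, and 21, and 0 lower in edgeR. Of all genes tested, 2.95%, 8.42%, 4.56%, and 2.21% were called higher at these days. Ccr2, a receptor of recruited monocytes, and Trem2 and Gpnmb, which mark lipid-associated macrophages, rose at all 4 days, Gpnmb by 3.71 ± 0.75, 4.76 ± 0.83, 3.30 ± 0.73, and 3.24 ± 0.78 on the log2 scale. All 3 lost the call of day 21 without library 37 (adjusted p = 0.414, 0.323, and 0.303), Gpnmb also without 21 or 41. Ccr2 lost that of day 3 without 2, 5, 23, or 25, and Trem2 that of day 12 without 12, 13, 15, 33, or 34. The resident Kupffer cell markers Clec4f and Vsig4 and the general marker Adgre1 were called at no day, and Cd68, Csf1r, and Itgam at day 6. Of these, Cd68 lost the call without library 7, 28, or 29 (adjusted p up to 0.0868), Csf1r lost it without 8, 10, 28, or 29 (up to 0.108), with all 40 libraries, or with only the 2 groups of the day, and Itgam kept it in each leave-one-out fit. The summed CPM of the 9 markers was 354 to 463 in WT and 452 to 659 in HNKO at day 6, and 340 to 472 against 364 to 451 at day 3, and its r with Mmp12 over deviations within HNKO was 0.16 (n = 19). Without Clec4f, 29.5% to 46.1% of the sum, the r was 0.5. Mmp12 had a higher r with other sums, 0.66 with the neutrophil markers and 0.58 with those of stellate cells and myofibroblasts. These were 0.65 without S100a9 and 0.67 without Reln. The part of macrophages and of these other cells in the Mmp12 result was not tested.

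Mmp13 (chr9:7272514-7283331), the main collagenase of rodents for fibrillar collagens, had higher means in HNKO at all days but passed at none. Its log2 fold changes were 0.99 ± 0.65, 2.12 ± 0.74, 1.57 ± 0.73, and 1.90 ± 0.73, with adjusted p-values of 0.4, 0.0534, 0.174, and 0.144. Counts were low, 0 to 14 in WT libraries and 3 to 69 in HNKO libraries. At day 6 WT libraries were at -3.12, -2.15, -1.46, and -1.02 log2 CPM and HNKO libraries at -1.36, -0.86, 0.21, 0.68, and 0.75, with library 6 within the WT range. The call of day 6 turned on the setting, with adjusted p-values of 0.03 in DESeq2, 0.036 with the edgeR 4 computation, 0.0495 with the number series as a covariate, and 0.0311 and 0.0355 without library 6 or 31. At day 12 the difference of mean log2 CPM was 2.30 among libraries numbered 1 to 21 and -0.01 among those numbered 22 to 41.

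**Figure D2:**
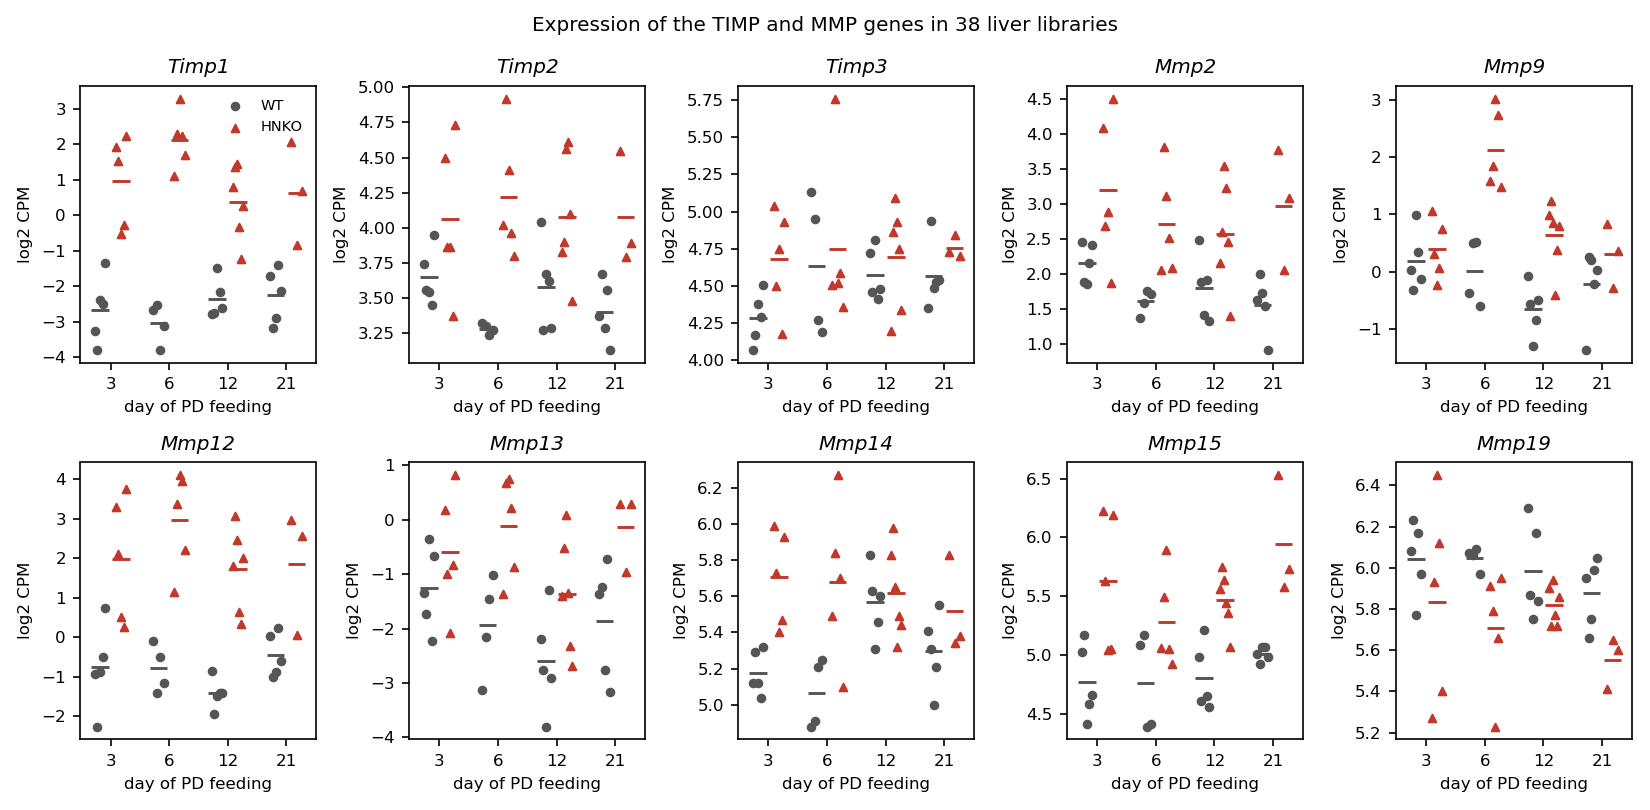
Expression (y axes, log2 CPM with a prior count of 2, scaled separately) of each gene in the 19 WT (grey circles) and 19 HNKO (red triangles) libraries by day of PD feeding (x axes), with lines at the group means. For Timp1 each HNKO library is above each WT library of its day, Mmp9 departs mainly at days 6 and 12, and for Mmp19 HNKO lies lower at days 6 and 21.

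The membrane-type MMPs are anchored in the cell membrane, where MMP-14 activates proMMP-2. Mmp14 (chr14:54431612-54445364) rose early. At day 3 WT libraries were at 5.04, 5.12, 5.12, 5.29, and 5.32 log2 CPM and HNKO libraries at 5.4, 5.47, 5.73, 5.93, and 5.99, without overlap. At day 6 they were at 4.88, 4.91, 5.21, and 5.25 in WT and 5.10, 5.49, 5.70, 5.84, and 6.27 in HNKO, with library 31 within the WT range. The log2 fold changes were 0.54 ± 0.16 and 0.66 ± 0.17 (adjusted p = 0.0398 and 0.00842), against 0.06 ± 0.15 and 0.23 ± 0.18 at days 12 and 21 (0.853 and 0.551).

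The WT mean of Mmp14 was higher at day 12 (5.57 log2 CPM) than at day 6 (5.06), and in edgeR the effect of day within WT had an adjusted p of 0.153, beside 5.84% of all genes called. The interaction had an adjusted p of 1.0 in edgeR. Within WT, edgeR and DESeq2 called 0 of the 10 genes for day, and Mmp14 was the 1 with an unadjusted p-value under 0.05. The call of day 3 was lost without library 1, 2, 3, 5, 23, 24, or 25 (adjusted p up to 0.136, without library 2). The call of day 6 was lost without library 29 (0.0561) and with only the 2 groups of the day (0.0695), and that of day 3 also with no filter beyond 1 count (0.0524) and with all 40 libraries (0.056). The log2 fold change of day 12, not called, was -0.02 without library 12.

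Mmp15 (chr8:95352268-95375080), the other membrane-type member, which epithelial cells and hepatocytes are known to express, rose at days 3, 12, and 21. Its log2 fold changes were 0.92 ± 0.22, 0.52 ± 0.24, 0.67 ± 0.21, and 1.0 ± 0.25, with adjusted p-values of 0.0156, 0.15, 0.0496, and 0.022. At day 3 WT libraries were at 4.41, 4.58, 4.66, 5.02, and 5.17 log2 CPM and HNKO libraries at 5.04, 5.05, 5.63, 6.19, and 6.22, with libraries 4 and 22 within the WT range. At day 21 WT was at 4.92, 4.98, 5.01, 5.07, and 5.07, and HNKO at 5.58, 5.73, and 6.53, without overlap. The call of day 3 was lost without library 2, 23, or 25 (adjusted p up to 0.0757), that of day 21 without library 19 or 37 (0.0508 and 0.511), and that of day 12 in 9 of 11 leave-one-out fits, up to 0.111 without library 15, and holding without library 16 or 36. With all 40 libraries the adjusted p was 0.0546, 0.13, and 0.0559 at days 3, 12, and 21, with only the 2 groups of the day it was 0.0674 at day 3, and the call of day 12 was also lost with the size factors of DESeq2 (RLE, 0.0504), with robust estimation of dispersion (0.0545), and with no filter beyond 1 count (0.0625).

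Mmp19 (chr10:128790910-128800824), a secreted MMP that cuts basement membrane proteins, ran against the rest. Its log2 fold changes were -0.16 ± 0.15, -0.32 ± 0.16, -0.18 ± 0.14, and -0.33 ± 0.18, and none passed (adjusted p = 0.594, 0.19, 0.476, and 0.332). At day 6 WT libraries were at 5.97, 6.06, 6.07, and 6.09 log2 CPM and HNKO libraries at 5.23, 5.66, 5.79, 5.91, and 5.95. At day 21 they were at 5.66, 5.75, 5.95, 5.99, and 6.05 in WT and 5.41, 5.60, and 5.65 in HNKO. At both days every HNKO library was below every WT library, as for 4.68% and 6.70% of all genes tested. Of the exonic bases of Mmp19, 22.3% are shared with Tmem198b on the other strand, which had a median of 84.5 counts.

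By groups that did not overlap, 2, 5, 2, and 4 of the 10 genes were higher in HNKO at days 3, 6, 12, and 21, beside 2.31%, 8.08%, 2.65%, and 7.25% of all genes tested. Lower in HNKO were 0, 1, 0, and 1, beside 1.80%, 4.68%, 2.14%, and 6.70%, the 1 being Mmp19 each time. The exact permutation test of mean log2 CPM gave a p under 0.05 in 21 of the 40 pairs of gene and day. These include Mmp19 at days 6 and 21, where it was lower in HNKO. The test was not run over all genes tested, so no share stands beside this count. Of the 19 calls of edgeR, 2 had an exact p over it, Mmp2 at day 3 and Mmp12 at day 21.

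Per length, Mmp19 was the most abundant of the proteinases in WT liver, at 18 ± 2.2 FPKM (SD, n = 19), followed by Mmp14 at 6.64 ± 1.19 and Mmp15 at 5.39 ± 1.03. Timp2 and Timp3 were at 2.91 ± 0.537 and 2.84 ± 0.600, closer to each other than their spread. Below them were Mmp2 at 1.04 ± 0.303, Mmp9 at 0.250 ± 0.111, Timp1 at 0.136 ± 0.112, Mmp13 at 0.0947 ± 0.0752, and Mmp12 at 0.0770 ± 0.0495. The last 3 also lay within each other's spread. With the longest transcript as the length, Mmp14 was at 12.2 and Timp3 at 4.90 FPKM, and the order of Timp2 and Timp3 turned, as did that of Mmp12 (0.125) and Mmp13 (0.0947).

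In HNKO liver the levels were 3.08 ± 2.54 FPKM for Timp1 (n = 19), 0.854 ± 0.693 for Mmp12, 2.48 ± 1.57 for Mmp2, 9.02 ± 3.08 for Mmp15, and 15.5 ± 3.28 for Mmp19. So Timp1 came nearer to Timp2 (4.62 ± 1.44) and Timp3 (3.32 ± 0.987) and still had the lowest mean of the inhibitors. By day, its mean share of the TIMP level was the lowest at days 3, 12, and 21, at 23.9%, 17.7%, and 20.1%. At day 6 it was 38%, beside 36.3% for Timp2 and 25.7% for Timp3. With the longest transcript as the length, it was 32.1% there, beside 36.4% for Timp3. Mmp12 remained below Mmp14 (8.53 ± 1.79), Mmp15, and Mmp19. The share of Mmp19 in the summed MMP level was 60.7% ± 1.32 in WT (n = 4) and 42.1% ± 11.8 in HNKO (n = 5) at day 6, and that of Mmp12 was 0.245% ± 0.112 and 3.6% ± 2.24. The summed MMP level was 30.9 ± 1.11 FPKM in WT and 36.6 ± 4.69 in HNKO at that day. Sums and shares were not tested.

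**Figure D3:**
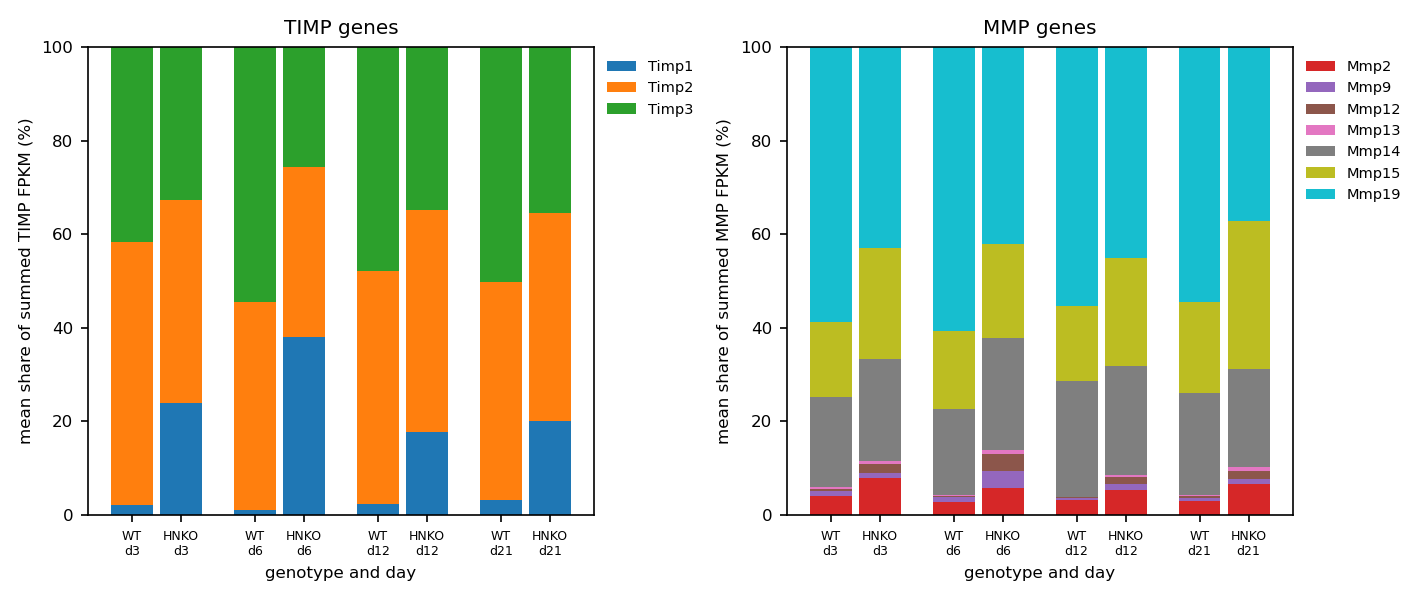
Mean share (y axes, percent) of each gene in the summed FPKM of the 3 TIMP genes (left) and of the 7 MMP genes (right) for WT and HNKO at each day (x axes, n = 3 to 6 libraries). Timp1 goes from 1.06% in WT to 38% in HNKO at day 6, and the Mmp19 share from 60.7% to 42.1%.

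The HNKO libraries of a day differed widely, and largely in the same way for many members. At day 3, libraries 2 and 23 had 9 and 8 of the 10 genes above every WT library, and library 22 had 2. At day 6 the count ran from 6 in libraries 6 and 31 to 9 in library 7, at day 12 from 3 in library 36 to 8 in libraries 12 and 13, and at day 21 it was 8, 4, and 7 in libraries 37, 38, and 40. Such counts per library were not made over all genes tested, so they cannot be called particular to the members. Timp1 was highest in libraries 23, 29, 13, and 37 at days 3, 6, 12, and 21, and Mmp12 in libraries 23, 29, 12, and 37. Both were lowest in libraries 6, 35, and 38 at days 6, 12, and 21. Mmp19 was lowest in libraries 2 (5.27 log2 CPM), 29 (5.23), and 37 (5.41) at days 3, 6, and 21, where Timp1 was high or highest. At day 12 it was lowest in libraries 12 and 35 (both 5.72), of which library 35 was the lowest for Timp1.

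**Figure D4:**
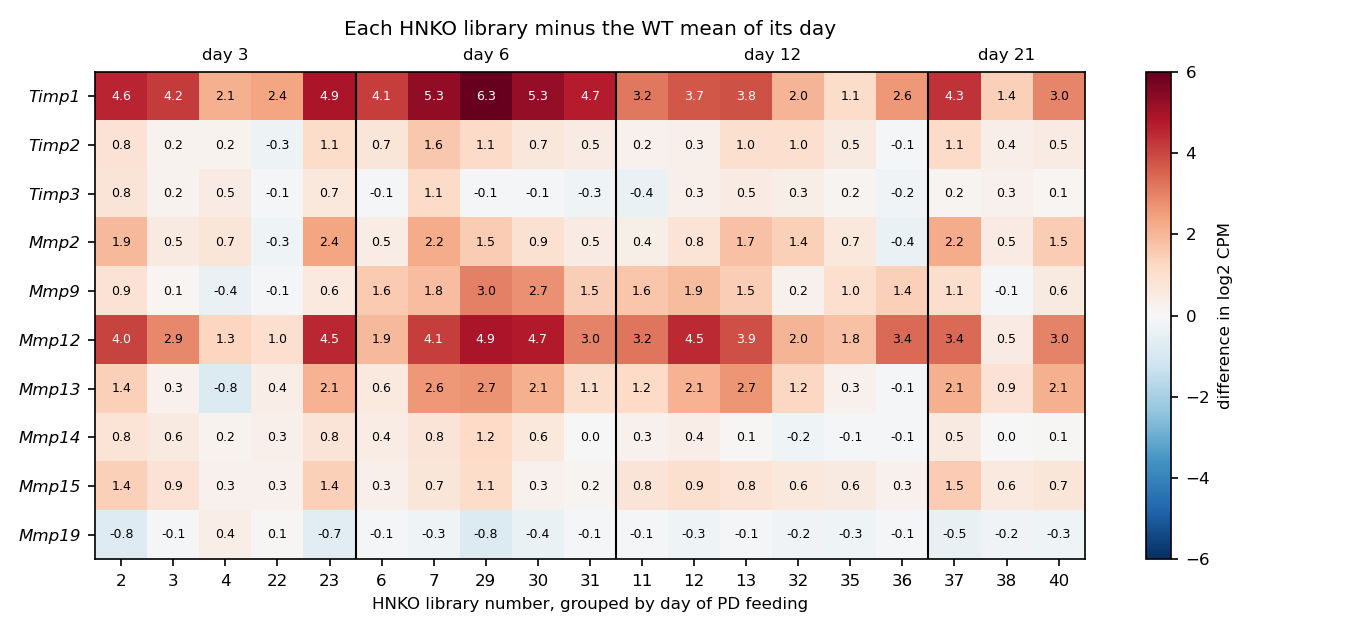
Difference in log2 CPM between each of the 19 HNKO libraries (x axis, grouped by day) and the WT mean of the same day, for the 10 genes (y axis), red where HNKO was higher and blue where it was lower. Every library is red for Timp1 and Mmp12, most strongly library 29 at day 6, and the smallest Timp1 differences are those of library 35 at day 12 and library 38 at day 21 (1.42).

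Within HNKO, deviations from the mean of each day went together most closely for Timp2 and Mmp2 (Pearson r = 0.96, n = 19 libraries) and for Timp1 and Mmp12 (r = 0.93). Of the 45 pairs of members, 18 had an r over 0.7 within HNKO and 0 within WT, where Timp2 and Mmp2 had r = 0.68 and Timp1 and Mmp12 r = 0.66. All 9 pairs with Mmp19 were negative within HNKO, down to r = -0.83 with Mmp15. These are descriptions over libraries that share depth scaling and the makeup of the same piece of liver. Several members had low counts in WT, and the effect of this on r was not tested. Pairs of members with higher counts differed too, such as Mmp14 and Mmp15 (r = 0.85 within HNKO and -0.35 within WT).

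**Figure D5:**
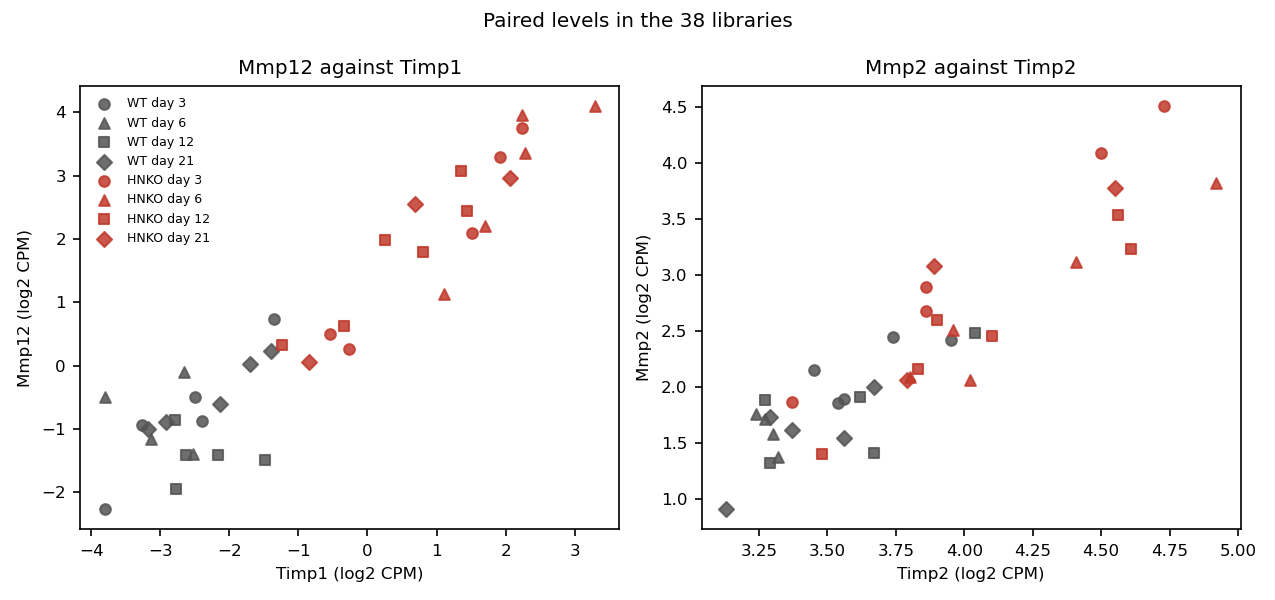
Log2 CPM of Mmp12 against Timp1 (left) and of Mmp2 against Timp2 (right) in the 38 libraries, WT in grey and HNKO in red, with 1 symbol per day. Timp1 and Mmp12 fall into a WT cloud and a spread of HNKO libraries that rise together, and Mmp2 rises with Timp2 across both genotypes.

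The genes outside the 10 whose log2 CPM ran most like each member are given here by Pearson r over the 38 libraries, 3 for each. These r values include the difference between genotypes, so the r within groups follows each. For Timp1 they were Spp1 (r = 0.94, within groups 0.73), Cpne8 (0.93, 0.68), and Ccr2 (0.93, 0.81), and for Mmp12 Ccr2 (0.95, 0.88), Itgax (0.94, 0.84), and Chst11 (0.93, 0.77). Ccr2 and Itgax are genes of monocytes, macrophages, and dendritic cells. For Timp2 they were Col6a2 (0.96, 0.94), Plxdc2 (0.95, 0.93), and Ptgfrn (0.93, 0.88), and for Mmp2 Dpt (0.94, 0.91), Loxl1 (0.94, 0.90), and Lama2 (0.93, 0.90). Col6a2, Dpt, Loxl1, and Lama2 are matrix genes of fibroblast-like cells.

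For Mmp9 the closest were Ccdc88b (0.91, within groups 0.80), Csf3r (0.91, 0.71), and Itgb2 (0.89, 0.70), of which Csf3r, the receptor of G-CSF, and Itgb2, the shared chain of leukocyte integrins, are leukocyte genes. For Mmp13 they were Slamf9 (0.83, 0.68), Ms4a6b (0.82, 0.67), and Serpinh1 (0.81, 0.71), the last being the chaperone of collagen. For Mmp19 they were Abat (0.89, 0.88), Gls2 (0.85, 0.83), and Suox (0.85, 0.81), which are metabolic enzymes of hepatocytes. Mmp14 ran with Map3k1 (0.86, 0.84), Sept11 (0.85, 0.84), and Pdlim7 (0.84, 0.78), Mmp15 with Rragd (0.89, 0.80), Osbpl3 (0.89, 0.83), and Ptprs (0.89, 0.82), and Timp3, with the lowest values, with Angptl2 (0.74, 0.77), Mthfd1l (0.72, 0.73), and Clip3 (0.71, 0.70).

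Marker lists of the liver cell types moved with the members to differing degrees. The 5 cholangiocyte markers summed to 34.02 to 48.58 CPM in WT and 105 to 751 in HNKO, without overlap. Of them 4, 4, 3, and 2 were called higher at days 3, 6, 12, and 21, beside 2.95%, 8.42%, 4.56%, and 2.21% of all genes tested. Within HNKO, the r of this sum with Timp1, Mmp12, Mmp15, and Mmp9 was 0.84, 0.83, 0.83, and 0.82 (n = 19), with Mmp19 it was -0.79, and with the other 5 members it was 0.05 to 0.75. Spp1 alone made up 62.5% to 97.1% of the sum, with a median of 88.6%. Without Spp1, a choice made after the data were seen, the other 4 markers summed to 4.40 to 11.1 CPM in WT and 9.09 to 59.4 in HNKO, with overlap. The medians were 5.765 and 12.75 CPM. The r of this smaller sum was -0.03 with Timp1, 0.1 with Mmp12, 0.32 with Mmp15, 0.23 with Mmp9, and -0.44 with Mmp19. Krt19, called at day 12 (2.74, adjusted p = 0.0101 in edgeR), was at 0.82 without library 35 (0.185). Epcam and Spp1 were called at all 4 days, and Spp1 is also known from macrophages. Epcam lost its call without library 2 at day 3 and without 21, 37, or 41 at day 21 (adjusted p up to 0.239). The r of the sum of the 5 hepatocyte markers within HNKO was 0.66 with Mmp19, -0.01 with Timp3, and from -0.81 (Mmp13) to -0.42 (Timp2) with the other 8 members. Alb made up 76.1% to 88.3% of that sum, and without it the r was 0.82, -0.16, and from -0.87 (Mmp15) to -0.55 (Timp2). Alb and Ttr of that list were called lower at day 6, at -0.67 and -0.64 (adjusted p = 0.0138 and 0.0189), beside 4.37% of all genes tested. Alb lost this call without library 29, with the edgeR 4 computation (adjusted p = 0.216), with only the 2 groups of the day (0.18), and with no filter beyond 1 count (0.0577), and Ttr lost it without 8 or 29 and with only the 2 groups of the day (0.111). The 6 markers of stellate cells and myofibroblasts summed to 266 to 369 CPM in WT and 227 to 475 in HNKO, and their r within HNKO was highest with Mmp2, at 0.80, and Timp2, at 0.72 (0.87 and 0.82 without Reln, 50.8% to 80% of the sum). Of that list 2, 2, 1, and 1 were called higher at days 3, 6, 12, and 21, beside the same shares of all genes. At day 12, 1 was called lower, beside 3.27%. Lum, a matrix proteoglycan, rose at days 3, 6, and 21 by 1.42 ± 0.34, 1.30 ± 0.37, and 1.59 ± 0.37, and lost the call without library 23 at day 3, without 7, 10, or 29 at day 6, and without 37 at day 21 (1.03, adjusted p = 0.472). Pdgfrb was called higher at days 3 and 6 and Des at day 12. Pdgfrb lost the call of day 3 without library 2, 5, 23, 24, 25, or 26 (adjusted p up to 0.15) and kept that of day 6 in each such fit, and Des lost its call without 11, 13, 15, 16, 33, or 34, with a log2 fold change of 0.77 without library 11 (adjusted p = 0.211). Reln, with the highest CPM of the 6, was called lower at day 12 (-0.40, adjusted p = 0.0207, lost without library 15) and had values of -0.20, -0.18, and -0.05 at days 3, 6, and 21, and Acta2 and Lrat were called at no day. Endothelial markers summed to 332 to 438 CPM in WT and 348 to 446 in HNKO, and 0 of the 5 were called at any day. Lymphocyte markers summed to 2.17 to 21.5 and 3.09 to 6.24 CPM, and 1 of the 5, Ms4a1, was called lower at day 3 (-1.68, adjusted p = 0.0252), a call lost without library 2, 3, 23, or 26 and at -0.25 without library 26. The part of the cell types in these results was not tested.

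Of 17 further MMP and TIMP genes, 12 could be tested. In edgeR 4 were called higher at day 6, beside 8.42% of all genes tested, and 1 at day 12, beside 4.56%, and the smallest adjusted p-values of days 3 and 21 were 0.28 (Mmp7) and 0.106 (Mmp23). Their median log2 fold changes were 0.30, 0.94, 0.83, and 0.70. The 4 of day 6 were the stromelysin Mmp3 (3.50 ± 0.93, adjusted p = 0.0109), the neutrophil collagenase Mmp8 (2.17 ± 0.62, 0.0188), Mmp23 (1.25 ± 0.40, 0.0336), and the leukocyte MMP Mmp25 (1.93 ± 0.64, 0.0408). The call of day 12 was Mmp23 (1.13 ± 0.35, 0.0392). At day 6 Mmp8 lost its call in 4 of 9 leave-one-out fits (without library 8, 10, 28, or 29), Mmp23 in 5 (7, 8, 27, 28, or 29), and Mmp25 in 6 (7, 8, 10, 28, 29, or 30), and at day 12 Mmp23 lost it in 7 of 11 (13, 15, 16, 32, 33, 34, or 35). Mmp3 kept its call in each of these fits, at 2.87 without library 7 and 5.09 without library 28, and lost it with all 40 libraries (3.48, adjusted p = 0.124). Mmp25 lost its call in DESeq2 (0.0575), with no filter beyond 1 count (0.0817), and with all 40 libraries (0.104). Mmp23 lost its calls of days 6 and 12 with all 40 libraries (0.153 and 0.163) and with only the 2 groups of the day (0.0653 and 0.0541). With no filter beyond 1 count it lost that of day 12 (0.0549). Mmp3, Mmp8, and Mmp25 were scarce, with medians of 0.17, 0.129, and 0.0963 CPM over the libraries used. Mmp1a and Mmp1b held 0 counts in all libraries.

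Of 18 genes that activate, bind, or clear MMPs, all could be tested, and 3, 7, 7, and 3 were called higher at days 3, 6, 12, and 21, beside 2.95%, 8.42%, 4.56%, and 2.21% of all genes tested. At each of the last 3 days 1 of the 18 was called lower, beside 4.37%, 3.27%, and 0.916%. Plat, which encodes tissue plasminogen activator, rose at all days by 2.29 ± 0.57, 2.59 ± 0.65, 1.77 ± 0.55, and 2.78 ± 0.63 on the log2 scale. Lcn2, whose product binds MMP-9, rose by 2.42 ± 0.56, 4.69 ± 0.68, 3.56 ± 0.58, and 2.85 ± 0.62, and Thbs1, a matricellular protein that binds MMPs, by 1.52 ± 0.38, 2.98 ± 0.44, 1.25 ± 0.37, and 1.91 ± 0.42. The gene that fell was Furin, the protease that removes the propeptide of membrane-type MMPs, at -0.33 ± 0.11, -0.38 ± 0.10, and -0.73 ± 0.13 at days 6, 12, and 21 (adjusted p = 0.0484, 0.0229, and 0.0021).

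Single libraries decided several of these calls. Without library 37, the values of day 21 were 1.82 for Plat (adjusted p = 0.445), 2.22 for Lcn2 (0.257), 1.34 for Thbs1 (0.393), and -0.71 for Furin (0.0548), and none passed. At day 3 Plat lost its call without library 2, 5, 23, or 25 and Thbs1 without 2, 5, or 23. At day 12 Plat lost it without 12, 13, 15, 16, 32, 33, or 34, and Thbs1 without 11, 12, 13, 15, 16, 33, 34, or 35. Furin lost the call of day 6 in 8 of 9 such fits, that is without 7, 8, 10, 27, 28, 29, 30, or 31 (adjusted p up to 0.202), and that of day 12 without 11, 13, 33, or 34. Lcn2 at days 3, 6, and 12 and Plat and Thbs1 at day 6 kept their calls in these fits.

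Of 10 substrate genes, 5, 8, 2, and 5 were called higher at days 3, 6, 12, and 21, beside the same 2.95%, 8.42%, 4.56%, and 2.21% of all genes, and their median log2 fold changes were 0.80, 1.15, 0.50, and 0.89. Col1a1, a chain of fibrillar collagen I, rose at all days by 1.84 ± 0.55, 4.02 ± 0.67, 2.03 ± 0.54, and 3.07 ± 0.61. Its call of day 3 was lost in 8 of 10 leave-one-out fits, without library 1, 2, 3, 5, 23, 24, 25, or 26 (adjusted p up to 0.164), that of day 12 without 13 or 15, and that of day 21 without 37 (2.11, adjusted p = 0.269), while day 6 held. Col1a2, Col3a1, Col4a1, and Col4a2 were called at 3 days each, held at day 6 in all leave-one-out fits, and lost the call of day 21 without library 37 (adjusted p = 0.477, 0.43, 0.485, and 0.527). Col4a1 also lost the call of day 21 without 19, 20, or 21, and Col4a2 without 19, 20, 21, 39, or 40 (adjusted p up to 0.0783). Their calls of day 3 and day 12 were lost in 3 to 7 fits each. Of the 89 calls of genes in these lists and the marker lists, 24 were lost with all 40 libraries, 23 of the 85 that could be fitted with only the 2 groups of the day, 8 with no filter beyond 1 count, and 0 to 2 in each of the other 6 settings. In 1 of these 6, at least 10 counts in every library, 69 of the 89 could be fitted. Protein levels and enzyme activity were not measured here.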

How the data were processed

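Whole-liver RNA was measured in 40 libraries of 1 mouse each, and the 38 that passed the quality control of the study were used. The authors depleted rRNA, sequenced 51-bp read pairs, aligned them to GRCm38 with STAR 2.7.2b, and counted fragments with both ends aligned on GENCODE genes with featureCounts 1.6.4. They deposited raw counts per gene, without normalization, and 0 rows name no gene. Samples were grouped by genotype and day from the labels, which give the days of feeding as age. Every column was mapped to a sample (0 were not).

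Genes were kept by filterByExpr of edgeR (minimum count 10, total 15, proportion 0.7), which removed 35190 of 55487 genes. Library sizes were scaled by TMM, each group had its own mean in the fit, and genotypes were compared at each day by the quasi-likelihood test (edgeR 4.0.16, legacy computation, R 4.3.3). Adjustment followed Benjamini and Hochberg over all 20297 genes tested, and the threshold was 0.05. The same fit gave the interaction of genotype and day and the day effects. Log2 CPM used a prior count of 2, and FPKM the merged exons of GENCODE on GRCm38. Exact permutation tests (scipy 1.17.1) of mean log2 CPM were two-sided and not adjusted, and the smallest possible p was 0.00794, 0.0159, 0.00433, and 0.0357 at days 3, 6, 12, and 21. The tests were checked on simulated data. Depth, 16151037 to 64181492 counts per library, limits the precision of genes with few counts.

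The 10 genes and all lists were chosen with earlier results of these data known. Named beyond the 10 are the 3 genes most like each, and list members called at 3 or more days or, if none, with the smallest p. Further list members were named after their values were seen: Mmp1a, Mmp1b, Mmp7, Mmp8, Mmp23, and Mmp25, and all single markers apart from Lum, Ccr2, Trem2, Gpnmb, Epcam, and Spp1. Alternatives were DESeq2 1.42.0 and its size factors, other filters, all 40 libraries, only the 2 groups of a day, other dispersion settings, the series of library numbers (1 to 21 and 22 to 41) in the model, and omission of each library. Marker sums without their most abundant gene were added after the data were seen. Correlations are descriptive.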

Additional observations from a re-analysis of the deposited data

Results flagged for a closer look

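In each gene, the groups of 4 or more libraries were searched for a library far from the others, by Dixon's test. Of 70 groups, 2 held one, fewer than the 1 in 20 that chance gives. Timp3 in HNKO library 7 at day 6 stood at 5.76 log2 CPM, with the other 4 at 4.59 or less. Mmp9 in WT library 19 at day 21 stood at -1.37 log2 CPM, with the others from -0.21 to 0.26.

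The 2 HNKO libraries of day 21 that the study left out were read as data outside the comparisons, on a scale fitted with all 40 libraries. Library 18 was above every WT library of day 21 for Timp1 (1.04 log2 CPM, WT up to -1.37), Timp2 (4.32, WT up to 3.67), Timp3 (5.04, WT up to 4.94), Mmp2 (3.22, WT up to 2.0), Mmp9 (1.29, WT up to 0.27), Mmp12 (2.54, WT up to 0.26), and Mmp15 (5.96, WT up to 5.09). Library 17 was above them for Timp3 (5.45), Mmp2 (4.06), and Mmp14 (5.71, WT up to 5.56), held 0 counts of Timp1, Mmp9, Mmp12, and Mmp13, and was at 3.42 log2 CPM for Mmp19 and 4.28 for Mmp15, where WT was at 5.66 and 4.92 or more on the scale of the 38 libraries. Library 18 also held 0 counts of Mmp13. Their quality differed from that of the other libraries, and its part in these values was not tested.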

How the results depend on the processing

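No paired analysis was possible because the library numbers in the labels are unique and the groups compared share none. At days 3, 6, 12, and 21 the number of the 10 genes called (5, 6, 4, and 4) ran from 2 to 5, 4 to 7, 3 to 4, and 0 to 4 when 1 library was left out in turn, and the number of all genes called (945, 2596, 1588, and 634) from 322 to 1668, 1126 to 3027, 852 to 1750, and 13 to 718. The interaction gave 0 to 3 genes and 0 of the 10, the day effect in WT (1185) 811 to 1385 and 0 of the 10, and that in HNKO (1604) 1183 to 1603 and 1 to 2 of the 10. With at least 10 counts in every library, Timp1, Mmp9, Mmp12, and Mmp13 dropped out, and 6 of the 10 genes were left to test. Of these 3, 3, 1, and 2 were called, with 788, 2078, 1180, and 470 genes in all. For the day effect in HNKO 0 of them were called, and Mmp9, which had it in the main fit, was not tested. All 40 libraries gave 2 of the 10 at days 3 and 12, and 331, 1321, 624, and 1350 genes, and 581 for the day effect in WT. Only the 2 groups of a day gave 3 of the 10 at day 3, and 420, 1325, and 867 genes at days 3, 6, and 12. No filter beyond 1 count gave 3 of the 10 at day 3. DESeq2 gave 1428 genes at day 3, 994 at day 21, 12 for the interaction, and 1856 for the day effect in WT, for which the number series as a covariate gave 2224. The edgeR 4 computation gave 2 of the 10 for the day effect in HNKO. Over all fits of the 10 genes the sign turned for Timp3 at day 6 (-0.20 to 0.34 when leaving out 1 library, negative without library 7) and Mmp14 at day 12 (-0.02 to 0.13, negative without library 12), neither called. Apart from the smaller number of genes or samples that some settings leave, the cause of these changes was not tested. Low counts per WT library limit Timp1 (0 to 8), Mmp13 (0 to 14), Mmp12 (3 to 40), and Mmp9 (7 to 71).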
